A study of Homo sapiens with 12 samples.

Results

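The Wnt/beta-catenin set described here has 10 members, namely CTNNB1, AXIN2, LGR5, NKD1, ZNRF3, RNF43, TCF7, TBX3, GLUL and NOTUM. They were chosen by name from the deposited Huh7 table, and all 10 were found among its 60666 listed genes. The 6 libraries were made from Huh7, a long-used line derived from human hepatocellular carcinoma (HCC). In the control group (3 libraries), the cells carried a lentiviral control sequence, and in the shFAM111B group (3 libraries) a lentiviral short hairpin RNA against FAM111B. The infected cells were kept under puromycin selection according to the study's methods, and only the one hairpin is listed, so effects of its sequence and of the loss of FAM111B cannot be told apart. Hep3B libraries were not analysed here. The labels do not say whether the replicates were separate cultures, so p-values measure only the spread between these libraries.

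Wnt proteins act on Frizzled receptors with the co-receptors LRP5 and LRP6, and this stops a destruction complex built on AXIN and APC from marking beta-catenin for degradation. Beta-catenin, the product of CTNNB1, then enters the nucleus, binds TCF/LEF factors and activates target genes, several of which are feedback inhibitors of the pathway itself. In the liver the pathway is best known for setting the programme of the hepatocytes around the central vein, with GLUL as its classical marker, and CTNNB1 is among the genes most often mutated in HCC. Most of this control acts on the beta-catenin protein, which RNA levels do not show.

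In shFAM111B cells, GLUL, LGR5 and CTNNB1 fell by at least 2-fold with TPM as deposited, whereas RNF43 rose by at least 2-fold. GLUL and RNF43 stayed past 2-fold under every alternative tried, while LGR5 dropped below it under 2 of them (-0.93 and -0.89 on the log2 scale) and CTNNB1 under 4 (-0.99 to -0.87). No alternative changed how reads in exon bases that RNF43 shares with other genes were divided, so the size of its change is uncertain. In bulk RNA, fewer cells of a type and less RNA per cell cannot be told apart. ZNRF3, TCF7 and TBX3 were lower by less than 2-fold with TPM as deposited. None of them kept an adjusted p under 0.05 (limma) after quantile normalization, after subtracting library medians or with the trend with transcript length and level removed. With that trend removed, ZNRF3 (0.093) and TBX3 (0.11) changed sign. TBX3 also lost an adjusted p under 0.05 after median-of-ratios and upper-quartile scaling. AXIN2 did not pass the test. NKD1 and NOTUM were listed at too low a level to be tested. The rise of RNF43 set it apart from its paralogue ZNRF3, since the mean RNF43 to ZNRF3 ratio went from 0.584 ± 0.152 (SD, n = 3) to 3.02 ± 0.605 (SD, n = 3).

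The hairpin's target and the start regions of the member that rose and the member with the largest fall are shown so that the sequences behind these statements can be read. The target, taken from the study's list of oligos, is printed 5′ to 3′, with capitals marking the site that pairs with bases 2 to 8 (the seed) of the guide strand, taken as the reverse complement of the target.

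shFAM111B target: ctgcctagtgaTTCTCATt

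The whole target of 19 nt, or its reverse complement, was found in 5 GENCODE v29 transcripts, which all belong to FAM111B. The seed site TTCTCAT occurred 2 times in the longest CTNNB1 transcript, 4 times in that of NKD1 and not at all in those of the other 8 members. It is common, since 28.8% of the tested genes with a known length hold it in their longest transcript. The median log2 fold change in shFAM111B cells was -0.65 for tested genes with the site and -0.24 for those without it. The site was counted over whole transcripts with no matching for length, and longer transcripts have more room for it. Tested genes of 4259 to 6851 nt had a median of -0.77 whether or not they held the site. The parts of length and of the site in the difference were not tested.

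Of the members, RNF43, GLUL, CTNNB1 and TCF7 had an entry in the RefSeq table of promoters (GRCh38.p14, from 250 bases before to 50 bases after the start). None of these windows held CTTTGAT or CTTTGAA, forms of the site that TCF/LEF factors bind, on either strand, and 6.86% of the 35116 promoters in the table did. Capitals mark the shorter core CTTTG, or CAAAG on the other strand, which lies inside both longer forms, was searched only after these had not been found, and is held by 47.5% of all promoters. The RNF43 window (chr17:58417485-58417784, minus strand) held the core 1 time, 90 bases before the start, and a second RNF43 start also held it 1 time. The GLUL window (chr1:182391741-182392040, minus strand) held none, nor did a second GLUL start or the CTNNB1 window. For TCF7, which was lower, a start (chr5:134123368-134123667) held the core 2 times and another start held none.

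RNF43: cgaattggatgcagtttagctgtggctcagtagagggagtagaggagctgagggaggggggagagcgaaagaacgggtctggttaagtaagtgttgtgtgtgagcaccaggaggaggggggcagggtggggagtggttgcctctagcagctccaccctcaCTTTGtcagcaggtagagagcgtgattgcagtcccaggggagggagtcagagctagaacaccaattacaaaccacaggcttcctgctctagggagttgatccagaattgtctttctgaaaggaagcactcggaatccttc

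GLUL: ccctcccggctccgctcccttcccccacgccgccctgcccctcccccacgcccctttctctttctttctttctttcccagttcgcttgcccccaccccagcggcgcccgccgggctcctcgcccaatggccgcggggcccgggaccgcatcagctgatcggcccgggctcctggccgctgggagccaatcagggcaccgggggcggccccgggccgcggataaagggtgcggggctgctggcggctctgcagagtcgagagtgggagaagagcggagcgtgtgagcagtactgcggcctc

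The deposited values are TPM, that is, reads divided by transcript length and scaled to a fixed total in each library. Over the listed genes they did not sum to an equal total, with 994314 to 997094 in the controls and 978634 to 994115 in shFAM111B cells. They allow levels to be compared between genes, but they keep no sequencing depth, so no counting error can be given. FAM111B itself had 7.84 to 8.29 TPM in the controls and 0.84 to 1.13 TPM in shFAM111B cells. All 9 hepatocyte markers had 1 TPM or more in every library, and they summed to 25278 to 25703 TPM in the controls and 39849 to 44875 TPM in shFAM111B cells. They moved in both directions, since the mean of AFP went from 7274 to 23062 TPM and that of APOA1 from 3233 to 7010 TPM, whereas APOB went from 236 to 48.2 TPM and HNF4A from 98.1 to 40.6 TPM. In the controls and shFAM111B cells, the summed TPM of other markers was 1.26 to 2.29 and 2.15 to 3.49 for 4 endothelial genes (KDR at 0), 15.1 to 18.6 and 21.9 to 23.5 for 3 leukocyte genes, mainly CD68, and 8.54 to 10.3 and 11.9 to 16.7 for 4 stellate or fibroblast genes. The 4 markers of bile duct cells summed to 81.6 to 85.8 TPM in the controls and 207.2 to 237.1 TPM in shFAM111B cells, mainly from KRT19. The part of these differences in the results below was not tested.

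Genes reaching 1 TPM in 3 or more libraries were tested (14394 genes). Log2(TPM + 1) was compared with limma's moderated test, and a call required both a 2-fold difference and P under 0.05. The pseudocount of 1 understates the change of low genes. The log2 fold change of the median tested gene was -0.36. The tested members all have long transcripts, the longest annotated one having 4259 to 6851 nt against a median of 3212 nt for all tested genes. In the 3221 tested genes of that range, the median log2 fold change was -0.77, 37.5% were called lower and 2.27% were called higher. Each member is therefore given below also with the trend with length and level removed by a loess fit, and under 4 other scalings. Of all calls, 22.3% were higher with TPM as deposited, against 53.0% after median-of-ratios scaling, 49.9% with upper quartiles, 47.8% after quantile normalization, 66.6% after subtracting library medians and 46.5% with the trend removed. The paper, from its own comparison at a 2-fold limit and P under 0.05, reports slightly more upregulated than downregulated genes in Huh7.

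Of the 8 tested members, 3 were called lower, where 23.7% of all tested genes were, and 1 was called higher, where 6.82% were. At an adjusted p under 0.05 with no limit on the fold change, 6 were lower (50.9% of all tested genes) and 1 was higher (21.1%). The groups did not overlap in all 8, with 7 lower (52.8% of all tested genes) and 1 higher (22.5%). The median log2 fold change of the 8 was -0.76, close to that of genes of the same length, and it was -0.00808 with the trend removed. As a list the members thus lay near this background, and the values below are those of single genes.

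**Figure D1:**
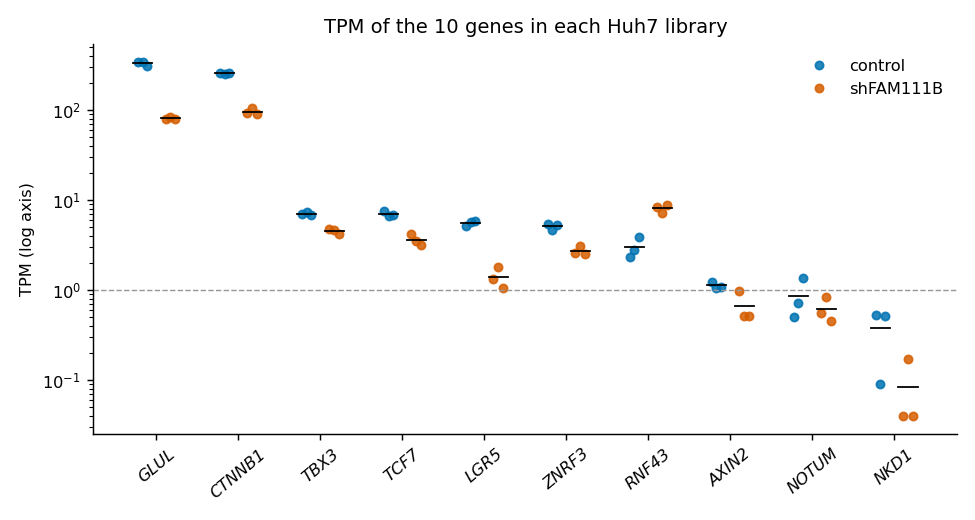
TPM of each of the 10 members (log axis) in the 3 control (blue) and 3 shFAM111B (orange) libraries, with black bars for the group means and a dashed line at 1 TPM. RNF43 is the member whose shFAM111B points all lie above its control points, and NOTUM and NKD1 have overlapping groups below or around 1 TPM.

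CTNNB1 encodes beta-catenin, the effector of the pathway and a component of adherens junctions. CTNNB1 stood at 258, 251 and 253 TPM in the controls and at 93.1, 104 and 89.7 TPM in the shFAM111B libraries. All shFAM111B libraries lay far below all controls, and the replicates were close to each other. The mean went from 254.3 ± 3.53 to 95.6 ± 7.44 TPM (SD, n = 3 each), a log2 fold change of -1.41 (standard error, SE, 0.0617, limma adjusted p = 3.91e-06). The direction held under every alternative, but the 2-fold call did not, since the log2 fold change was -0.95 after median-of-ratios scaling, -0.99 after upper-quartile scaling, -0.87 after subtracting library medians and -0.95 with the trend removed. CTNNB1 (ENSG00000168036) lies on chromosome 3 from 41194741 to 41260096 on the plus strand of GRCh38, and it shares no exon base with ULK4, the gene that overlaps it on the other strand.

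TCF7 encodes TCF1, a DNA-binding partner of beta-catenin that is also a target of the pathway. It had 7.60, 6.63 and 6.72 TPM in the controls and 4.22, 3.49 and 3.17 TPM in the shFAM111B libraries, which did not overlap. Its log2 fold change of -0.79 (95% interval -1.08 to -0.50) had a limma adjusted p = 0.000922 but missed the 2-fold limit. The adjusted p stayed under 0.05 after median-of-ratios (-0.41) and upper-quartile scaling (-0.45), but not after quantile normalization (-0.32), after subtracting library medians (-0.26) or with the trend removed (-0.071, limma adjusted p = 0.627). TCF7 (ENSG00000081059) lies on chromosome 5 from 134114711 to 134151865 on the plus strand. It shares 210 of its 10063 exon bases with SKP1 on the other strand, which had 412.6 to 475.1 TPM, and whether the counting used strand is not given in the sources used here.

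GLUL encodes glutamine synthetase, which makes glutamine from glutamate and ammonia in perivenous hepatocytes. It was the most abundant member in the controls, at 343, 339 and 307 TPM, and had 79.6, 83.55 and 78.8 TPM in the shFAM111B libraries. The groups lay far apart, and the shFAM111B values were within a few TPM of each other. The mean went from 329.4 ± 19.9 to 80.6 ± 2.56 TPM (SD, n = 3 each), a log2 fold change of -2.02 (SE 0.0575, limma adjusted p = 1.89e-06). Of all tested genes, this fall lay at percentile 2.85. GLUL stayed called under all 16 alternatives, with log2 fold changes from -2.09 to -1.47. GLUL (ENSG00000135821) lies on chromosome 1 from 182381704 to 182392206 on the minus strand, and its 4 listed pseudogene copies had 0 TPM in every library, which does not say how reads of shared sequence were divided.

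GLUL fell further than CTNNB1 between the groups. The GLUL to CTNNB1 ratio of TPM, which a factor on a whole library leaves unchanged, was 1.33, 1.35 and 1.21 in the controls and 0.855, 0.804 and 0.878 in the shFAM111B libraries. Of these most abundant members, GLUL was thus the higher in every control library and CTNNB1 in every shFAM111B library. The log2 change of the ratio was -0.61 (exact permutation test, two-sided p = 0.1, the smallest that 3 libraries against 3 can give). This ratio and the others given here were among 5 computed, all chosen after the members' values had been seen. Each had p = 0.1 in the exact permutation test, and no adjustment over the 5 was made. The log2 change was -0.62 for LGR5 to CTNNB1 and 0.46 for TCF7 to CTNNB1, with no overlap between the groups.

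LGR5 encodes a receptor for R-spondins, which raise Wnt signalling by removing ZNRF3 and RNF43 from the cell surface. It had 5.13, 5.64 and 5.81 TPM in the controls and 1.31, 1.80 and 1.04 TPM in the shFAM111B libraries. Every shFAM111B library was below every control. The log2 fold change was -1.46 (SE 0.150, limma adjusted p = 0.000106), and it was -1.95 with a pseudocount of 0.1. The 2-fold call was lost after subtracting library medians (-0.93) and with the trend removed (-0.89), with the direction kept. LGR5 (ENSG00000139292) lies on chromosome 12 from 71439770 to 71586310 on the plus strand.

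ZNRF3 and RNF43 encode related membrane ubiquitin ligases that take Frizzled receptors off the cell surface, and both are feedback targets of the pathway. ZNRF3 had 5.45, 4.63 and 5.27 TPM in the controls and 2.60, 3.07 and 2.48 TPM in the shFAM111B libraries. The groups did not overlap, and the log2 fold change of -0.72 (95% interval -1.01 to -0.43) had a limma adjusted p = 0.0013 without reaching 2-fold. After quantile normalization (-0.30, limma adjusted p = 0.0622) and after subtracting library medians (-0.19, limma adjusted p = 0.198) it did not pass, and with the trend removed it turned to 0.093 (limma adjusted p = 0.514). ZNRF3 (ENSG00000183579) lies on chromosome 22 from 28883592 to 29057487 on the plus strand.

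RNF43 went the other way. It had 2.32, 2.77 and 3.84 TPM in the controls and 8.28, 7.21 and 8.74 TPM in the shFAM111B libraries. The lowest shFAM111B library was well above the highest control, control replicate 3. The mean went from 2.98 ± 0.781 to 8.08 ± 0.785 TPM (SD, n = 3 each), a log2 fold change of 1.20 (SE 0.162, limma adjusted p = 0.000431). RNF43 stayed called higher under all 16 alternatives, with log2 fold changes from 1.08 to 1.95, the highest being the one with the trend removed. In genes of its length range, 2.27% were called higher.

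RNF43 (ENSG00000108375) lies on chromosome 17 from 58352500 to 58417595 on the minus strand of GRCh38, where other genes overlap it. It shares 143 of its 7505 exon bases with SUPT4H1 on the same strand, which encodes a transcription elongation factor subunit. SUPT4H1 had 59.3 to 65.4 TPM in the controls and 98.9 to 116.3 TPM in the shFAM111B libraries, so it moved in the same direction from a much higher level. The RNF43 to SUPT4H1 ratio was 0.0391, 0.0423 and 0.0599 in the controls and 0.0735, 0.0729 and 0.0751 in the shFAM111B libraries. The groups did not overlap, and RNF43 rose by more than its neighbour between the groups (log2 change 0.67, exact permutation test, two-sided p = 0.1). The transcript AC004687.2, which shares 4326 exon bases with RNF43 on the same strand, had 0.41 to 0.56 TPM in the controls and 0.24 to 0.37 TPM in the shFAM111B libraries. How reads in shared bases were divided was not tested, so the size of the RNF43 change is uncertain.

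The RNF43 to ZNRF3 ratio was 0.426, 0.598 and 0.729 in the controls and 3.18, 2.35 and 3.52 in the shFAM111B libraries. ZNRF3 was the more abundant of the pair in every control library and RNF43 in every shFAM111B library. The log2 change of the ratio was 2.38 (exact permutation test, two-sided p = 0.1). RNF43 was higher and ZNRF3 lower with no overlap, so their ratio had to separate. This p was thus fixed by the values of both genes and adds no support.

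**Figure D2:**
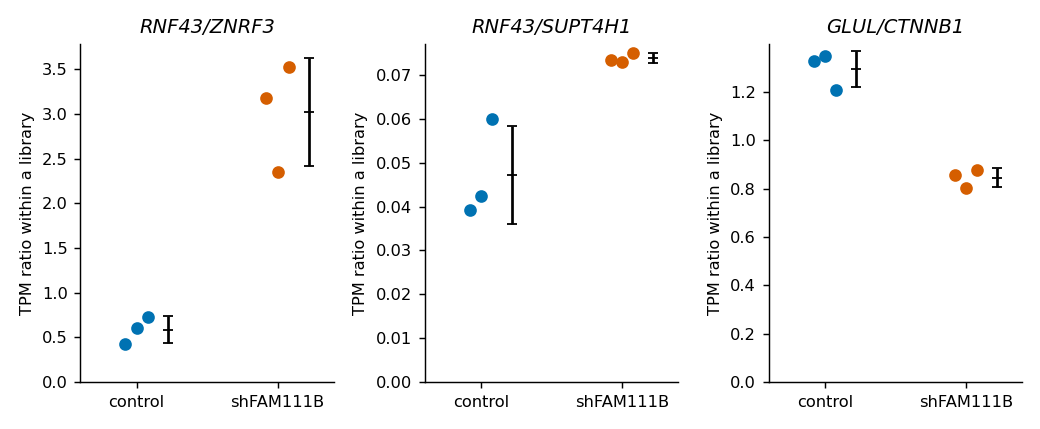
Ratios of TPM within each library (y axes start at 0) for RNF43 to ZNRF3, RNF43 to SUPT4H1 and GLUL to CTNNB1 in control (blue) and shFAM111B (orange) libraries, with bars for the mean and SD of 3. In each panel the groups are apart, with the first and second ratio higher and the GLUL to CTNNB1 ratio lower in shFAM111B cells. For RNF43 to ZNRF3 this separation was fixed by the values of both genes.

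AXIN2 encodes a scaffold of the destruction complex and is a widely used readout of beta-catenin activity. It was low, with 1.24, 1.06 and 1.08 TPM in the controls and 0.98, 0.52 and 0.51 TPM in the shFAM111B libraries. The groups were apart by less than 0.1 TPM, and AXIN2 was tested only because all 3 controls reached 1 TPM. The log2 fold change was -0.36 (95% interval -0.75 to 0.029, limma adjusted p = 0.0855), which equals the fall of the median tested gene. It was 0.17 after subtracting library medians and 0.055 with the trend removed, so a direction cannot be given. AXIN2 (ENSG00000168646) lies on chromosome 17 from 65528563 to 65561647 on the minus strand.

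TBX3 encodes a T-box repressor that beta-catenin activates in liver tumours. It had 6.94, 7.44 and 6.82 TPM in the controls and 4.72, 4.68 and 4.17 TPM in the shFAM111B libraries. Every shFAM111B library was below every control, and the log2 fold change was -0.55 (95% interval -0.78 to -0.31, limma adjusted p = 0.00186). After median-of-ratios scaling it was -0.16 (limma adjusted p = 0.199), after quantile normalization -0.043, and with the trend removed it turned to 0.11 (limma adjusted p = 0.33). TBX3 (ENSG00000135111) lies on chromosome 12 from 114670254 to 114684164 on the minus strand, and no annotated gene overlaps it.

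NOTUM and NKD1, a secreted enzyme that inactivates Wnt proteins and an inhibitor that binds Dishevelled, are feedback targets of the pathway in liver tumours. NOTUM (ENSG00000185269, chromosome 17 from 81952507 to 81961840) had 0.50, 0.72 and 1.35 TPM in the controls and 0.56, 0.84 and 0.45 TPM in the shFAM111B libraries. NKD1 (ENSG00000140807, chromosome 16 from 50548330 to 50649249) had 0.53, 0.09 and 0.52 TPM in the controls and 0.04, 0.17 and 0.04 TPM in the shFAM111B libraries. The groups overlapped for both. With no filter on TPM the log2 fold changes were -0.18 for NOTUM (limma adjusted p = 0.54) and -0.33 for NKD1 (limma adjusted p = 0.15), so no difference was detectable at these levels.

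**Figure D3:**
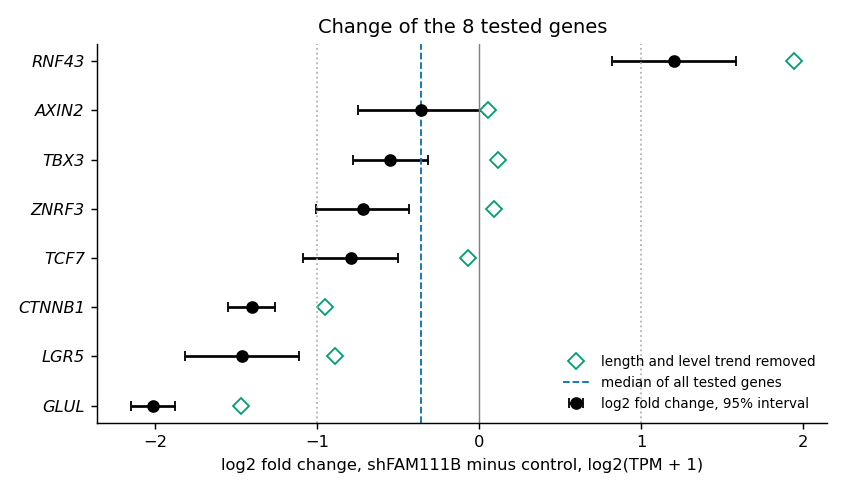
Log2 fold change of the 8 tested members (x axis, log2(TPM + 1), shFAM111B minus control), with 95% intervals in black and the value with the length and level trend removed as open diamonds. The blue dashed line is the median of all tested genes (-0.36) and dotted lines mark 2-fold. GLUL, LGR5 and CTNNB1 lie left of -1 and RNF43 right of 1, and the diamonds of AXIN2, TBX3, ZNRF3 and TCF7 lie near 0.

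Ordered by their TPM in the controls, the members were GLUL, CTNNB1, TBX3, TCF7, LGR5, ZNRF3, RNF43, AXIN2, NOTUM and NKD1. TBX3 and TCF7, LGR5 and ZNRF3, AXIN2 and NOTUM, and NOTUM and NKD1 were neighbours with overlapping libraries. In shFAM111B cells the order was CTNNB1, GLUL, RNF43, TBX3, TCF7, ZNRF3, LGR5, AXIN2, NOTUM and NKD1, so RNF43 went from rank 7 to rank 3 and LGR5 from rank 5 to rank 7. RNF43 did not overlap with its neighbours there, nor did LGR5.

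**Figure D4:**
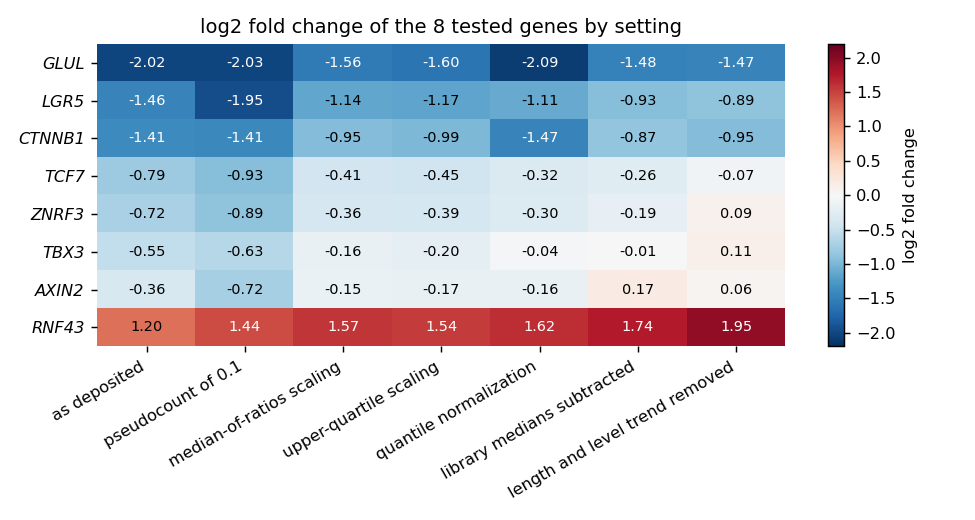
Log2 fold change of the 8 tested members (rows) with TPM as deposited and under 6 alternatives (columns), printed in each cell and coloured from blue (lower in shFAM111B cells) to red (higher). GLUL, LGR5 and CTNNB1 are negative and RNF43 is positive in every column, while AXIN2 changes sign in the last columns and ZNRF3 and TBX3 do so with the trend removed.

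The rest of the pathway was described with 10 lists holding 123 genes, all found in the table and 67 of them tested. Of these 67, 24 were called lower and 1 was called higher, and 49 and 8 were lower and higher at an adjusted p under 0.05 with no fold limit. Over all tested genes, 23.7% were called lower and 6.82% higher, and 50.9% and 21.1% were lower and higher by adjusted p, and in the members' length range 37.5% were called lower and 2.27% higher. The counts of single lists below are to be read against these shares. The median log2 fold change of the 67 was -0.75, and it was -0.26 with the trend removed, under which 9 were called lower and 5 higher. The genes named below are, for each list, the up to 3 called lower and up to 2 called higher with the smallest P. Those given with values that were not called were added after their values had been seen. WNT3, FZD6, FZD8, APC, APC2, LEF1 and EP300, like AXIN2, passed the filter only through the controls. Of these WNT3, FZD6, APC, APC2 and EP300 are among the 24 called lower, and with at least 1 TPM required in every library 19 were called lower.

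Of the 19 Wnt ligands, 2 were tested, and they moved apart. WNT3, a ligand of the beta-catenin branch, went from 2.85 ± 0.295 to 0.697 ± 0.241 TPM (SD, n = 3 each), a log2 fold change of -1.19 (limma adjusted p = 0.000406). WNT11, best known as a ligand of beta-catenin-independent signalling, had 2.44, 3.28 and 3.84 TPM in the controls and 15.6, 13.5 and 13.8 TPM in the shFAM111B libraries. It was the only list gene called higher, with a log2 fold change of 1.88 (SE 0.145, limma adjusted p = 2.85e-05), and it stayed called under all 16 alternatives. WNT3 lost its call under all 4 scalings and with the trend removed (-0.95 to -0.66). WLS and PORCN, which are needed to secrete Wnt proteins, had log2 fold changes of 0.45 and -0.44. RSPO1, RSPO2 and RSPO3 were listed at 0 in every library.

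LGR4, the paralogue of LGR5 that is more widely expressed, was the only tested gene of the R-spondin list. It had 70.8, 68.3 and 64.2 TPM in the controls and 14.9, 16.4 and 12.8 TPM in the shFAM111B libraries. Its log2 fold change was -2.14 (SE 0.0947, limma adjusted p = 4.04e-06), and it stayed called lower under all 16 alternatives. LGR4 was thus more abundant than LGR5 in both groups, and both R-spondin receptors were lower.

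Of the 12 tested Frizzled receptors, co-receptors and Dishevelled genes, 5 were called lower and none higher. Of all tested genes 23.7% were called lower, and 37.5% of those in the members' length range. The longest transcripts of the tested genes reach from 3018 nt (DVL2) to 10020 nt (LRP6), so that range covers only part of this list. The list median was -0.68, and it was -0.047 with the trend removed. FZD5 went from 40.3 ± 2.59 to 11.1 ± 0.737 TPM and the co-receptor LRP6 from 10.2 ± 0.611 to 2.69 ± 0.0436 TPM (SD, n = 3 each), with log2 fold changes of -1.77 and -1.60. FZD4 fell by 1.06 on the log2 scale. LRP5 was also lower, but by less, with 67.9 to 71.6 TPM in the controls and 58.3 to 62.1 TPM in shFAM111B cells. Its log2 fold change was -0.21 (limma adjusted p = 0.00713). DVL2 (log2 fold change 0.16, limma adjusted p = 0.0781) did not pass the test. With the trend removed, the calls of FZD5 (-0.95), LRP6 (-0.61) and FZD4 (-0.15) were lost, that of FZD4 also under the 4 scalings (-0.70 to -0.53).

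In the destruction complex, 5 of 10 tested genes were called lower, against 23.7% of all tested genes and 37.5% in the members' length range, and none higher. The longest transcripts of this list reach from 3524 nt (GSK3A) to 11656 nt (APC2), so that range covers only part of it. The list median was -0.98, and it was -0.15 with the trend removed. The called genes include the scaffold APC, which went from 3.75 ± 0.805 to 0.637 ± 0.121 TPM (SD, n = 3 each). The kinase CSNK1A1 (log2 fold change -1.01) and the tankyrase TNKS2 (-1.72), which marks AXIN proteins for degradation, were also called. The members of this list therefore include both a negative and a positive regulator of the pathway. TNKS2 lost its call with the trend removed (-0.89), and APC did so (-0.63) and after subtracting library medians (-0.99). CSNK1A1 lost its call under all scalings (-0.63 to -0.47), with the trend removed (-0.28), without control replicate 1 (-0.95) and without shFAM111B replicate 3 (-0.99). The kinases GSK3A and GSK3B did not pass the test (adjusted p = 0.964 and 0.575 in limma). GSK3A had 33.0, 27.3 and 64.0 TPM in the shFAM111B libraries, replicate 3 standing apart.

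Of 13 tested TCF/LEF factors and their partners, 5 were called lower and none higher. Of all tested genes 23.7% were called lower, and 37.5% of those in the members' length range. The longest transcripts of this list spread more widely than that range, from 2705 nt (TLE2) to 10803 nt (CREBBP). The list median was -0.80, and it was -0.075 with the trend removed. EP300 and CREBBP, related acetyltransferases that serve as coactivators of many transcription factors, fell by 3.26 and 1.77 on the log2 scale. EP300 had 17.5, 17.4 and 22.1 TPM in the controls and 1.09, 1.27 and 0.88 TPM in the shFAM111B libraries. Its fall stood under all 15 alternatives that gave a value, from -4.02 to -2.29. The corepressor TLE1 went from 132.7 ± 3.03 to 46.4 ± 5.59 TPM (SD, n = 3 each), a log2 fold change of -1.50. TLE1 lost its call after subtracting library medians (-0.97) and CREBBP with the trend removed (-0.77). Among the other DNA-binding partners of beta-catenin, TCF7L2 had a log2 fold change of -0.91 (limma adjusted p = 0.000152), whereas TCF7L1 (-0.12) and LEF1 (-0.40) did not pass the test.

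**Figure D5:**
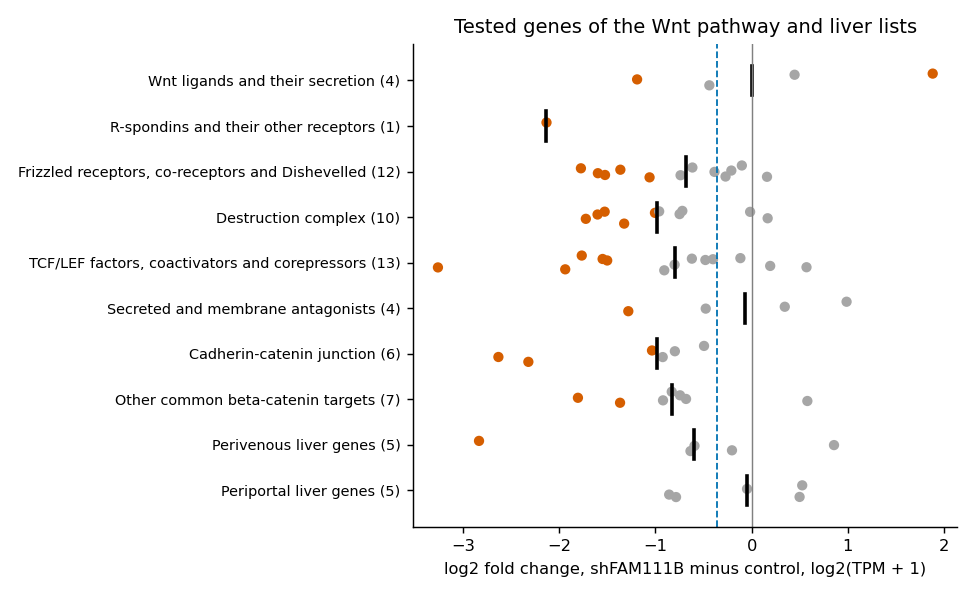
Log2 fold change (x axis, log2(TPM + 1), shFAM111B minus control) of the tested genes of each list, with the number tested in brackets, called genes in orange, other genes in grey and a black bar for the list median. The blue dashed line is the median of all tested genes. WNT11 is the only orange point right of 0, and EP300, AHR and VCL lie farthest left.

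Of 4 tested antagonists, 1 was called lower and none higher, where 23.7% and 6.82% of all tested genes were. It was DKK1, which blocks LRP5 and LRP6 and is itself a target of the pathway. It went from 104.2 ± 3.62 to 42.7 ± 7.07 TPM (SD, n = 3 each), a log2 fold change of -1.28 (limma adjusted p = 6.64e-05), and lost the call under 3 of the 4 scalings (-0.87 to -0.75). DKK3 had a log2 fold change of 0.99, just under 2-fold (limma adjusted p = 0.00208). Of 7 other tested targets used in many tissues, SOX9 (-1.37) and TNFRSF19 (-1.81) were called lower and none higher, near the 23.7% of all tested genes called lower. SOX9 had 57.9 to 59.0 TPM in the controls and 21.5 to 22.5 TPM in shFAM111B cells, and its call was lost after median-of-ratios (-0.93) and upper-quartile scaling (-0.97), after subtracting library medians (-0.83) and with the trend removed (-0.86). CCND1, a cyclin, had a log2 fold change of -0.68 (limma adjusted p = 2.39e-05), and SP5, a repressor that is a direct target, had 0.58 (limma adjusted p = 0.00862). At an adjusted p under 0.05 (limma) with no fold limit, 6 of these 7 targets were lower and 1 was higher. Of all tested genes 50.9% and 21.1% were. SP5 was the higher one and did not reach 2-fold. SP5 and RNF43 thus had positive values, beside GLUL, LGR5, DKK1 and SOX9 with negative ones.

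Beta-catenin also links cadherins to the cytoskeleton, and all 6 tested junction genes were lower at an adjusted p under 0.05 (limma), 3 of them by at least 2-fold, where 50.9% and 23.7% of all tested genes were. The list median was -0.98, and it was -0.50 with the trend removed, under which CDH1 was at -0.10, JUP at -0.081 and CTNNA1 at -0.54. CTNND1, encoding p120-catenin, went from 125.9 ± 7.19 to 24.6 ± 3.93 TPM and VCL, encoding vinculin, from 68.8 ± 2.99 to 10.6 ± 3.87 TPM (SD, n = 3 each). Their log2 fold changes of -2.32 and -2.63 stayed called under all 16 alternatives. CDH2 (-1.04) lost its call without shFAM111B replicate 3 (-0.98), under the 4 scalings (-0.66 to -0.50) and with the trend removed (-0.46).

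The perivenous liver list, without GLUL, has 12 genes. Of these 5 were tested and 1 was called lower, where 23.7% of all tested genes were. At an adjusted p under 0.05 (limma) with no fold limit, 3 were lower and 1 was higher. The called gene was AHR, a receptor that induces cytochrome P450 genes, which fell from 30.4 ± 2.50 to 3.40 ± 0.307 TPM (SD, n = 3 each). OAT and NR1I3 had log2 fold changes of -0.59 and -0.64 (limma adjusted p = 0.000132 and 0.0225). RHBG, an ammonium transporter, had 3.76 to 4.51 TPM in the controls and 7.78 to 9.56 TPM in shFAM111B cells, a log2 fold change of 0.86 (limma adjusted p = 0.000492). CYP1A2 and SLC1A2 had at most 0.20 TPM in any library and CYP2E1 at most 1.01 TPM, so these defining perivenous genes were not tested. Of the 9 periportal genes 5 were tested and none was called, with 2 higher (CPS1 0.53, ASL 0.50) and 2 lower (ARG1 -0.86, HAL -0.79) at an adjusted p under 0.05 (limma).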

How the data were processed

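Poly(A)-selected RNA of Huh7 cells was sequenced in 3 control and 3 shFAM111B libraries. The authors deposited 1 table with TPM per library and group means, and 4 columns of their own comparison (fold change, its log2, p and adjusted p), which were not used. The submitters' processing notes name RSEM, DESeq2 and hg38, with no versions. Genes reaching 1 TPM in 3 or more libraries were compared on log2(TPM + 1) with limma 3.58.1 (lmFit, eBayes with a trend) in R 4.3.3 over the whole table with no covariate and Benjamini-Hochberg adjustment. TPM keep no depth, so no count test was used. The fit was tested on simulated data. Positions, lengths (longest transcript) and the transcript search used GENCODE v29 (GRCh38), which holds 96.3% of the listed identifiers, and promoters came from RefSeq (GRCh38.p14). The trend with length and level was a loess fit (span 0.75).

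The members, the lists and the rule for naming list genes (the members, FAM111B and, per list, up to 3 genes called lower and up to 2 called higher with the smallest P) were chosen with earlier results of these data known. The ratios and the CTTTG core were chosen after values had been seen. Alternatives were no filter, at least 1 TPM in every library, a pseudocount of 0.1, the replicate block, each library left out, 4 scalings, the trend removed and calls by adjusted p. Within a group, at most 0.889% of tested genes had identical TPM in a pair of libraries.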

Additional observations from a re-analysis of the deposited data

How the results depend on the processing

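The number of members called higher was 1 under all 16 alternatives, and that called lower was 3, or 2 after median-of-ratios and upper-quartile scaling, and 1 after subtracting library medians and with the length and level trend removed, under which GLUL remained. Of the list genes, 24 were called lower and 1 higher. After subtracting library medians this was 13 and 7, with the trend removed 9 and 5, with a pseudocount of 0.1 30 and 2, after median-of-ratios scaling 16 and 4, after the upper-quartile method 16 and 3, after the quantile method 18 and 4, and with at least 1 TPM in every library 19 and 1. When single libraries were left out, 20 to 25 list genes were called lower and 1 to 2 higher, and the members' counts stayed at 3 and 1. Signs turned for AXIN2 after subtracting library medians (0.17) and with the trend removed (0.0553), and with the trend removed for ZNRF3 (0.0929) and TBX3 (0.11). The cause of these changes was not tested.

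With the replicate block the counts were 3 and 1 for the members and 24 and 1 for the lists, so it changed no call. Same-numbered libraries deviated together only weakly (correlations 0.054, 0.0349 and 0.0908). With 3 libraries per group this cannot show whether they shared a culture or batch. AXIN2 has no value without any one control or with at least 1 TPM in every library. TPM give no depth, which limits statements on NKD1, NOTUM and AXIN2.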
